A study of Mus musculus with 12 samples.

Results

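Interferon signalling was followed through 9 genes of the pathway in bone marrow-derived macrophages (BMDMs): the receptor genes Ifnar1 and Ifnar2, the transcription factor genes Stat2, Irf9, Irf1, Irf7 and Irf8, and the feedback inhibitors Usp18 and Socs1. The genes were taken by name from the 48795 listed by Ensembl identifier, and all 9 were found. Type I interferon binds a receptor made of IFNAR1 and IFNAR2, and the receptor's kinases then phosphorylate STAT2, among others. STAT2 and IRF9 are subunits of the complex ISGF3, which binds the interferon-stimulated response element (ISRE) of its target genes, while the gamma-activated sequence (GAS) is the element through which interferon-γ acts. USP18 and SOCS1 act back on the receptor and its kinases, and USP18 also removes the ubiquitin-like protein ISG15 from other proteins.

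BMDMs grown with M-CSF from wild-type (WT) mice, given as C57BL/6 in the labels and as C57BL/6NJ in the methods, or from Acod1-/- mice of the strain C57BL/6NJ-Acod1em1(IMPC)J/J received vehicle, urban particulate matter (PM) at 20 µg/cm2 for 24 hours, or 4-octyl itaconate (OI) at 0.25 mM for 2 hours before the same PM. OI is a cell-permeable derivative of itaconate, the metabolite that the enzyme ACOD1 makes, and the group that received it is called OI+PM. RNA-seq gave 2 libraries for each of these 6 groups, and no group with OI alone was analysed here, so the comparison of OI+PM with PM is the one that varies OI. The labels do not say whether the 2 libraries of a group came from separate mice or cultures, so the p-values measure the spread between libraries, which may be technical.

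The 12 libraries held between 33616577 and 36817898 counts. Of the 10 macrophage markers checked, all 10 were above the filter used for testing. Their summed level, in CPM, a count scaled to the size of its library, lay between 15151 and 15354 with vehicle, between 23717 and 27874 after PM and between 14601 and 16775 after OI+PM. The 10 markers of neutrophils and their precursors summed to between 53.4 and 84.6 CPM in vehicle-treated libraries, between 309 and 373 CPM after PM and between 415 and 475 CPM after OI+PM, although the neutrophil gene Ly6g had 0 counts in both libraries of 5 of the 6 groups. The 5 markers of plasmacytoid dendritic cells, of which 2 were above the filter, summed to between 67.9 and 84.9 CPM with vehicle, between 40.5 and 57.7 CPM after PM and between 34.1 and 49.8 CPM after OI+PM, and Siglech among them had 0 counts in both libraries of 5 of the 6 groups. The part of these shifts in the results was not tested. In bulk RNA, fewer cells of a type and less RNA per cell cannot be told apart. Counts over the whole Acod1 gene do not check the deletion, since Acod1 was at 181 and 170 CPM in WT cells after PM and at 108 and 94.1 CPM in Acod1-/- cells. Nnt and Wdfy1, which differ between mouse substrains, were higher in vehicle-treated Acod1-/- cells, by a log2 fold change of 0.97 and 2.16 (edgeR adjusted p = 3.83e-05 and 3.37e-05), while the methods name the same substrain for both genotypes and the labels do not give that of WT mice. Whether the mice differed in background was not tested, and such a difference and the Acod1 genotype cannot be told apart. The 2 WT libraries with PM and the 2 with OI+PM stood apart from their partners more than other pairs did, with a chi-square per degree of freedom of 27.3 and 58.5, against 2.61 to 8.32 in the other groups. Within these pairs the difference followed exonic length, with a Spearman's rho of 0.60 and 0.61 across genes, and what this did to the results below was examined by leaving out each library and by a correction for length.

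On the GRCm38 build, the receptor genes lie near each other on chromosome 16 (Ifnar2 at chr16:91372783-91405589 and Ifnar1 at chr16:91485238-91507441, both on the plus strand). Socs1 is on the same chromosome at chr16:10782240-10785536 on the minus strand. The other genes are at chr10:128270559-128292849 (Stat2, plus), chr14:55603571-55610030 (Irf9, plus), chr11:53770014-53778374 (Irf1, plus), chr7:141262706-141266481 (Irf7, minus), chr8:120736358-120756694 (Irf8, plus) and chr6:121245906-121270917 (Usp18, plus). Counts were made per gene, over all its exons. Exons of another gene share 123 bases on the same strand with Irf9 (Rnf31, with 812 to 1245 counts per library) and 45 bases on the opposite strand with Irf7 (Phrf1, with 1416 to 2216 counts). The overlapping genes of Ifnar2, Irf1 and Usp18 had at most 4 counts in any library. How strand was handled in counting is not given in the sources used here, so the counts of Irf7 hold this uncertainty. The overlap of Irf9 is on the same strand, where strand cannot separate its reads from those of Rnf31. The counts of Irf9 are therefore uncertain over the shared bases.

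To show what the members share beyond their expression, the promoter windows of RefSeq (GRCm38.p6, 250 bases before to 50 after each transcription start) were searched for the ISRE core GAAANNGAAA, which reads TTTCNNTTTC on the other strand, and for the GAS motif TTCNNNGAA, which is its own reverse complement. The table held 11 windows for 8 of the 9 members, and Usp18 had no entry. Of all 32851 windows in the table, 3.44% held the ISRE core and 8.3% the GAS motif. The 250 bases before the start are given below, 5′ to 3′ on the gene's strand, for the members whose windows held a match on a factor or feedback gene, and for Irf7, whose level moved most among the factors and whose window held neither motif. Capitals mark a match. A match describes these letters and is not a binding site shown here.
Stat2 (chr10:128270248-128270497, plus strand): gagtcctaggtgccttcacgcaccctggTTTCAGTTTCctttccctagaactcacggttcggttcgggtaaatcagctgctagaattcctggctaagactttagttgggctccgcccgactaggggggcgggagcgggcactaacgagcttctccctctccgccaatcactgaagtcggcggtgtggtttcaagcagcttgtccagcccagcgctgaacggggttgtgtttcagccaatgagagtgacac
Irf1 (chr11:53769764-53770013, plus strand): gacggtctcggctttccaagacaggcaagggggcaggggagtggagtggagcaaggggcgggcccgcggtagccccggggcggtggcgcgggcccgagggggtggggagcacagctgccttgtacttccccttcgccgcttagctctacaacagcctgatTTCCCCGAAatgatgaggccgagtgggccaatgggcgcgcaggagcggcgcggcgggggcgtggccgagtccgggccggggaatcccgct
Irf7 (chr7:141266425-141266674, minus strand): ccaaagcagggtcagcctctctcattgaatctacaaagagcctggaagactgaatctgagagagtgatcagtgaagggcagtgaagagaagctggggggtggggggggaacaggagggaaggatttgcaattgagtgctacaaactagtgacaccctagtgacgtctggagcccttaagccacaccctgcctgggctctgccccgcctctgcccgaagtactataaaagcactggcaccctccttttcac
Irf8 (chr8:120736108-120736357, plus strand): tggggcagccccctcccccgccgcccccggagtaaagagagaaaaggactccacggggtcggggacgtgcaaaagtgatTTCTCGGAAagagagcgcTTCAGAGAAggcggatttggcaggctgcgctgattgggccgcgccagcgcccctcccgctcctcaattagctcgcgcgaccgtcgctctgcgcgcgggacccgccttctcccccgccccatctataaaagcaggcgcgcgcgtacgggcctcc
Socs1 (chr16:10785537-10785786, minus strand): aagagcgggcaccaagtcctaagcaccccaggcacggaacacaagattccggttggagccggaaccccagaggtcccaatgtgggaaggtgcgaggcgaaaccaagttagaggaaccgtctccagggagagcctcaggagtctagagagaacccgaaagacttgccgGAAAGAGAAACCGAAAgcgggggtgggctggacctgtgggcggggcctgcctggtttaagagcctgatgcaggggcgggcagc

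The Stat2 window held 1 ISRE core on the other strand, TTTCAGTTTC, which began 222 bases before the start. In the Socs1 window 2 ISRE cores, GAAAGAGAAA and GAAACCGAAA, overlapped and began 83 and 77 bases before the start. Irf1 held the GAS motif TTCCCCGAA, 90 bases before the start, and Irf8 held 2 GAS motifs, TTCTCGGAA and TTCAGAGAA, 171 and 153 bases before. The receptor genes each held 1 GAS motif, TTCACGGAA in Ifnar1 and TTCCTGGAA in Ifnar2. Neither the Irf7 window, nor the 2 Irf9 windows, nor the other windows of Irf1 and Irf8 held these letters.

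The 9 genes spanned very different levels. Averaged over all libraries and given per kilobase of exons, the level was highest for Ifnar2 (28.0 CPM per kilobase) and Ifnar1 (27.3), followed by Irf8 (22.5), Irf1 (21), Stat2 (11.6), Irf9 (9.35), Irf7 (8.49), Usp18 (3.51) and Socs1 (0.275). Variability differed as much. Between its lowest and highest library, Usp18 differed 22.5-fold, Irf7 9.74-fold, Stat2 4.09-fold, Irf9 3.10-fold, Socs1 2.92-fold and Irf1 2.69-fold, whereas Ifnar1, Ifnar2 and Irf8 differed 2.08-fold, 1.36-fold and 1.23-fold. Socs1 was below the filter for testing (CPM above 1.5 in at least 2 libraries), so 8 of the 9 genes were tested among 11228.

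**Figure D1:**
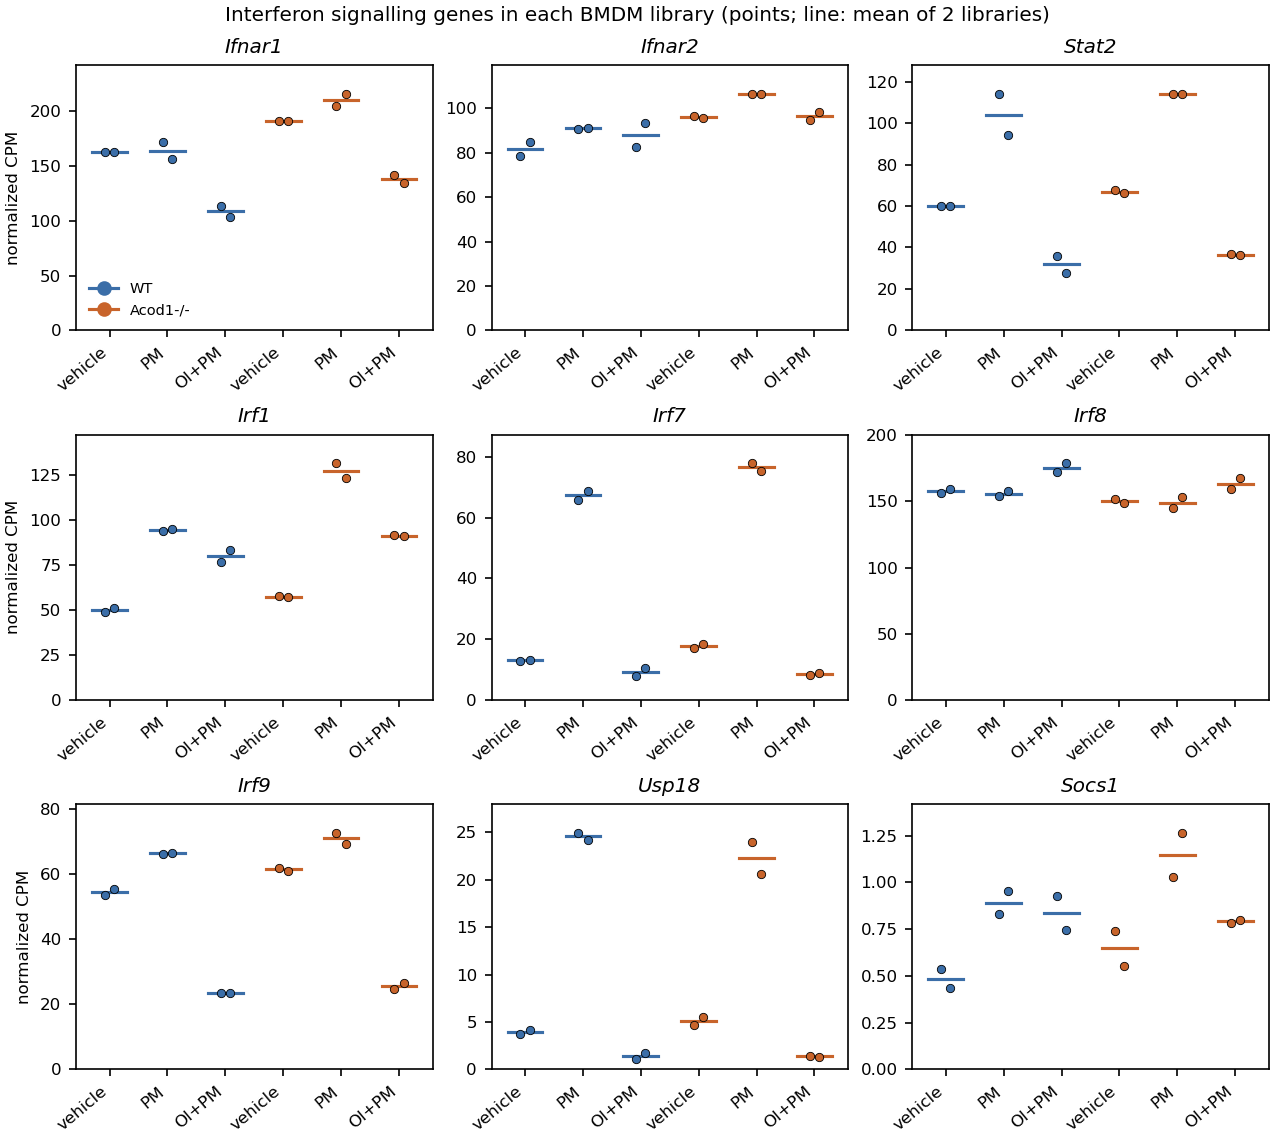
Normalized CPM (vertical axis, from 0, on a scale of its own in each panel) of the 9 interferon signalling genes in the 12 libraries, with 1 point per library, a line at the mean of 2 libraries and the 6 groups of genotype and treatment along the horizontal axis. Usp18 sits at 20.6 to 25.0 CPM in the PM-treated libraries and at 1.11 to 1.69 CPM in the OI+PM libraries, while Irf8 stays between 145 and 179 CPM throughout.

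To determine how PM changed these genes, PM-treated cells were compared with vehicle-treated cells of the same genotype. PM raised Irf7, Usp18, Irf1, Stat2 and Irf9 in both genotypes, and left both receptor genes and Irf8 short of the threshold (edgeR quasi-likelihood test, adjusted p of 0.05 or less). Of the 8 tested genes, 5 were higher and 0 lower in WT cells, where 12.6% of all genes tested were higher and 12.2% lower. In Acod1-/- cells the same 5 genes were higher, against 12% of all genes higher and 11.9% lower. DEGs, which also change at least 2-fold, were Irf7 and Usp18 in WT cells (2 of 8, against 3.02% of all genes) and Irf7, Usp18 and Irf1 in Acod1-/- cells (3 of 8, against 3.19%). The median log2 fold change of the 8 genes was 0.54 in WT and 0.49 in Acod1-/- cells, where that of all genes was 0.01 and -0.00024. With libraries scaled by their total counts alone, the higher share of all called genes fell from 50.8% to 34.9% in WT cells and from 50.1% to 37.1% in Acod1-/- cells.

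Stat2 encodes the STAT that is specific to ISGF3. It was at 59.9 and 60.0 CPM in the 2 vehicle-treated WT libraries and at 114 and 94.3 CPM after PM. In Acod1-/- cells it was at 67.7 and 66.2 CPM with vehicle and at 114 in both libraries after PM. In neither genotype did the groups overlap, and Stat2 rose by a log2 change of 0.79 (SE 0.115, adjusted p = 0.00082) in WT and 0.77 (SE 0.114, adjusted p = 0.000878) in Acod1-/- cells. Irf9, the DNA-binding subunit of ISGF3, changed less. It was at 53.5 and 55.4 CPM with vehicle and 66.2 and 66.4 CPM after PM in WT cells, and at 61.8 and 60.9 CPM against 72.7 and 69.3 CPM in Acod1-/- cells. The groups did not overlap and the log2 changes were 0.28 (SE 0.0623, adjusted p = 0.00959) and 0.21 (SE 0.0622, adjusted p = 0.035). The call on Irf9 in Acod1-/- cells was lost without any 1 of the 4 libraries compared (adjusted p from 0.0712 to 0.204), and that in WT cells was lost without vehicle replicate 1 (0.0956) or 2 (0.051). Total count scaling (adjusted p = 0.0584 in WT and 0.175 in Acod1-/- cells) and no filter on low counts (0.0627 and 0.243) also ended both calls, and testing genes with 10 or more counts ended that in Acod1-/- cells (0.0646).

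Irf7, which encodes the factor that amplifies the transcription of type I interferon genes, had the largest response of the IRFs. With vehicle it was at 12.9 and 13.3 CPM in WT cells and at 16.9 and 18.4 CPM in Acod1-/- cells. After PM it was at 65.8 and 68.8 CPM in WT cells and at 77.9 and 75.4 CPM in Acod1-/- cells. The PM-treated libraries lay far above the vehicle-treated ones in both genotypes, with a 5.14-fold rise in WT (log2 2.36, SE 0.109, adjusted p = 4.77e-07) and a 4.33-fold rise in Acod1-/- cells (log2 2.11, SE 0.107, adjusted p = 6.21e-07). Irf1, an early factor induced by interferon-γ and by NF-κB, was at 49.0 and 51.2 CPM with vehicle and 94.1 and 94.9 CPM after PM in WT cells. In Acod1-/- cells it was at 57.6 and 57.2 CPM, and at 132 and 123 CPM after PM. Irf1 thus rose 1.89-fold in WT (log2 0.92, SE 0.0654, adjusted p = 7.9e-06) and 2.22-fold in Acod1-/- cells (log2 1.15, SE 0.0655, adjusted p = 1.45e-06), with no overlap between groups. Irf8, which encodes a factor needed for monocyte and dendritic cell development, was at 156 and 159 CPM with vehicle and 154 and 158 CPM after PM in WT cells, and at 152 and 149 against 145 and 153 CPM in Acod1-/- cells. These groups overlapped, and the 95% interval of the log2 difference ran from -0.15 to 0.11 in WT and from -0.14 to 0.12 in Acod1-/- cells.

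Of the feedback genes, Usp18 was at 3.69 and 4.15 CPM in vehicle-treated WT cells and at 25.0 and 24.2 CPM after PM. In Acod1-/- cells it was at 4.73 and 5.53 CPM with vehicle and at 24.0 and 20.6 CPM after PM. The rise was 6.26-fold in WT (log2 2.65, SE 0.142, adjusted p = 1.21e-06) and 4.34-fold in Acod1-/- cells (log2 2.12, SE 0.139, adjusted p = 3.57e-06), and every PM-treated library lay above every vehicle-treated one. Socs1, which blocks JAK kinases, had 20 and 17 counts in vehicle-treated WT libraries and 29 and 33 after PM, and 27 and 20 against 35 and 44 in Acod1-/- cells. These few counts correspond to 0.433 to 1.27 CPM. When genes with 10 or more counts over all libraries were tested, which keeps Socs1, its log2 change was 0.87 (SE 0.266, edgeR adjusted p = 0.047) in WT and 0.83 (SE 0.244, adjusted p = 0.0405) in Acod1-/- cells.

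The receptor genes moved little after PM. Ifnar1 was at 162 CPM in both vehicle-treated WT libraries and at 171 and 156 CPM after PM, groups that overlap, and at 190.2 and 190.6 CPM against 204 and 216 CPM in Acod1-/- cells, groups that do not. The log2 fold change was 0.01 (95% interval -0.14 to 0.17) in WT and 0.14 (-0.01 to 0.30) in Acod1-/- cells, and neither was called. Ifnar1 was called higher in Acod1-/- cells with the length correction (0.21, adjusted p = 0.00994; 0.0122 with the replicate block added) and with the compared groups alone (0.15, adjusted p = 0.0254). Ifnar2 was at 78.6 and 84.6 CPM with vehicle and 90.8 and 91.1 CPM after PM in WT cells, with a log2 fold change of 0.16 (adjusted p = 0.128), and at 96.5 and 95.6 CPM against 107 and 106 CPM in Acod1-/- cells, with 0.15 (adjusted p = 0.162; 0.0212 with the compared groups alone). PM-treated libraries were the higher ones for Ifnar2 in both genotypes.

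To determine how OI changed the response, OI+PM was compared with PM. Usp18, Irf7, Stat2 and Irf9 fell more than 2-fold in both genotypes, Ifnar1 and Irf1 fell by less, Ifnar2 was called in neither, and Irf8 was called slightly higher in WT but not in Acod1-/- cells. In WT cells 6 of the 8 genes were lower and 1 higher, while 22.6% of all genes tested were lower and 21.3% higher. In Acod1-/- cells 6 were lower and 0 higher, against 20.6% and 13.9% of all genes. The same 4 genes were DEGs in both genotypes, Usp18, Irf7, Stat2 and Irf9, where DEGs in this direction made up 8.49% of all genes in WT and 7.98% in Acod1-/- cells. The median log2 fold change of the 8 genes was -1.04 in both genotypes, beside 0.02 and -0.00056 for all genes. With total count scaling the higher share of all called genes went from 48.5% to 29.9% in WT and from 40.3% to 29.7% in Acod1-/- cells, and fitting the compared WT groups alone gave 30.8%.

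**Figure D2:**
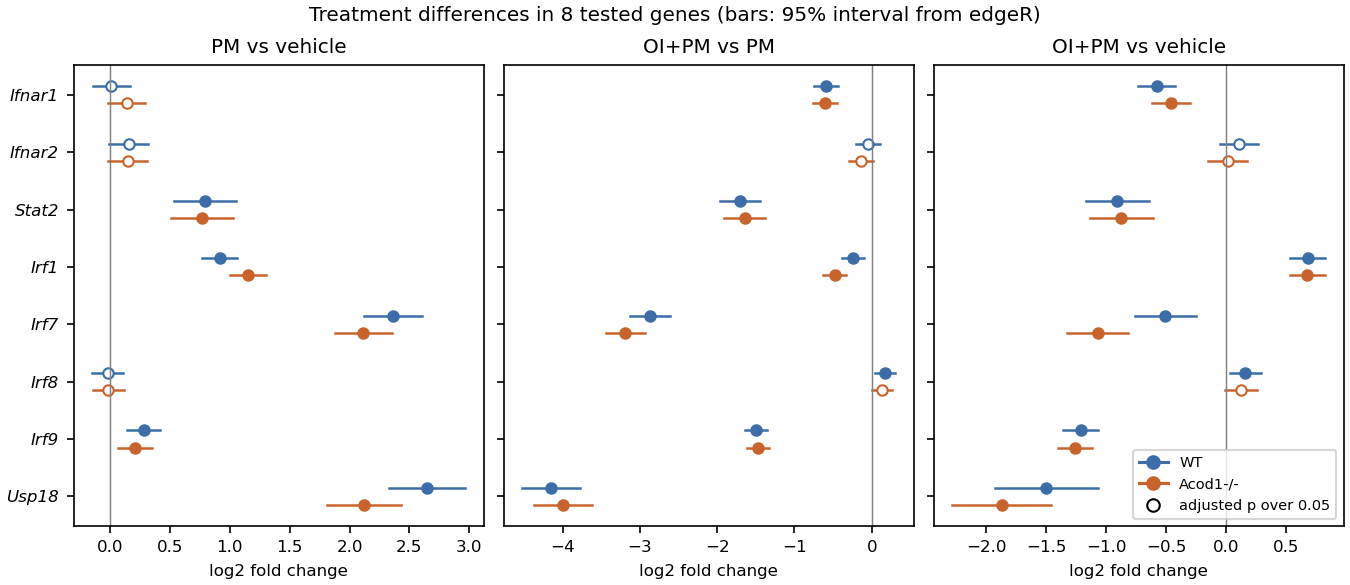
Log2 fold change (horizontal axis) of the 8 tested genes for PM against vehicle, OI+PM against PM and OI+PM against vehicle, in WT and in Acod1-/- cells. Points are edgeR estimates, open where the adjusted p is over 0.05, bars are 95% confidence intervals, and each panel has its own scale. After OI, Usp18 has the lowest estimate, -4.14 in WT and -3.99 in Acod1-/- cells, and Irf1 stands above 0 for OI+PM against vehicle, at 0.68 and 0.67.

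In OI+PM-treated cells Usp18 was at 1.11 and 1.69 CPM in the WT libraries and at 1.44 and 1.36 CPM in the Acod1-/- libraries, below the vehicle-treated libraries of both genotypes. Compared with PM it fell 17.7-fold in WT (log2 -4.14, SE 0.169, adjusted p = 3.85e-08) and 15.9-fold in Acod1-/- cells (log2 -3.99, SE 0.168, adjusted p = 4.75e-08). Irf7 was at 8.0 and 10.5 CPM in WT and at 8.09 and 8.75 CPM in Acod1-/- cells with OI+PM, which is also below every vehicle-treated library. It fell 7.30-fold in WT (log2 -2.87, SE 0.114, adjusted p = 3.35e-08) and 9.10-fold in Acod1-/- cells (log2 -3.19, SE 0.115, adjusted p = 1.87e-08). Neither gene lost its call without any 1 of the libraries compared.

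The ISGF3 subunit genes fell as well. Stat2 was at 35.9 and 27.9 CPM in WT and at 36.7 and 36.3 CPM in Acod1-/- cells with OI+PM, below both the PM- and the vehicle-treated libraries. Its log2 change against PM was -1.70 (SE 0.118, adjusted p = 1.68e-06) in WT and -1.64 (SE 0.118, adjusted p = 2.22e-06) in Acod1-/- cells. Irf9 was at 23.6 and 23.4 CPM in WT and at 24.7 and 26.6 CPM in Acod1-/- cells. Although PM had raised Irf9 by little, it fell with OI by a log2 of -1.50 in WT (SE 0.065, adjusted p = 5.76e-08) and -1.47 in Acod1-/- cells (SE 0.0647, adjusted p = 6.2e-08), and no OI+PM library reached the level of any other group.

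Irf1 behaved differently from the other factors that PM raised. With OI+PM it was at 76.8 and 83.2 CPM in WT and at 91.6 and 91.2 CPM in Acod1-/- cells, between the vehicle- and the PM-treated libraries of the same genotype. The fall against PM was 1.18-fold in WT (log2 -0.24, SE 0.0648, adjusted p = 0.0131) and 1.40-fold in Acod1-/- cells (log2 -0.48, SE 0.0646, adjusted p = 0.000225). The WT call was lost without a filter on low counts (adjusted p = 0.0729) and with the compared groups fitted alone (0.201). Irf8 was at 172 and 179 CPM in WT and at 159 and 168 CPM in Acod1-/- cells with OI+PM, above the PM-treated libraries of its genotype. Its log2 change was 0.17 (SE 0.0581, adjusted p = 0.0357) in WT and 0.13 (SE 0.0581, adjusted p = 0.105) in Acod1-/- cells, and the WT call was lost without WT PM replicate 1 (adjusted p = 0.145) or 2 (0.063) or WT OI+PM replicate 2 (0.102). It was also lost with total count scaling (log2 0.042, adjusted p = 0.593), with genes of 10 or more counts tested (0.0598), without a filter (0.218), with CPM above 1.5 in all libraries (0.0677) and with the compared groups alone (0.382).

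The 2 receptor genes parted under OI. Ifnar1 was at 113 and 104 CPM in WT and at 142 and 135 CPM in Acod1-/- cells with OI+PM, the lowest values of each genotype. It fell 1.51-fold in WT (log2 -0.59, SE 0.0701, adjusted p = 8.3e-05) and 1.52-fold in Acod1-/- cells (log2 -0.60, SE 0.0698, adjusted p = 7.93e-05). Ifnar2 was at 82.5 and 93.2 CPM in WT and at 94.9 and 98.5 CPM in Acod1-/- cells. Its log2 fold change was -0.05 (95% interval -0.21 to 0.11) in WT, where the groups overlapped, and -0.14 (-0.30 to 0.02) in Acod1-/- cells, where they did not. With total count scaling Ifnar2 was called lower in both genotypes (-0.18, adjusted p = 0.0417, and -0.21, adjusted p = 0.0285), and in Acod1-/- cells also with the length correction (-0.15, adjusted p = 0.0411; 0.0487 with the replicate block added). Socs1 had 31 and 22 counts in WT and 26 in both Acod1-/- libraries with OI+PM. With the same filter its log2 change against PM was -0.08 (SE 0.249, adjusted p = 0.872) in WT and -0.52 (SE 0.240, adjusted p = 0.158) in Acod1-/- cells.

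Against vehicle, OI+PM left 5 genes lower in both genotypes: Ifnar1, Stat2, Irf7, Irf9 and Usp18. In WT cells these 5 stood beside 2 higher genes, where 31.9% of all genes were lower and 33.6% higher. In Acod1-/- cells 5 were lower and 1 higher, against 26.7% and 22.7% of all genes. The DEGs were Irf9 and Usp18 in WT (2 of 8, against 10.7% of all genes) and Irf7, Irf9 and Usp18 in Acod1-/- cells (3 of 8, against 9.25%). With total count scaling the higher share of all called genes moved from 51.3% to 30.9% in WT and from 45.9% to 28.4% in Acod1-/- cells. This comparison shares its libraries with both comparisons above, and the values of each stand side by side.

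Usp18 was 2.82-fold lower than with vehicle in WT (log2 -1.50, SE 0.191, adjusted p = 9.93e-05) and 3.66-fold lower in Acod1-/- cells (log2 -1.87, SE 0.184, adjusted p = 1.79e-05). Irf9 was 2.32-fold and 2.40-fold lower, with a log2 change of -1.21 (SE 0.0648, adjusted p = 1.78e-07) and -1.26 (SE 0.0645, adjusted p = 1.36e-07). Stat2 was lower by a log2 fold change of -0.91 in WT and -0.88 in Acod1-/- cells, and Irf7 by -0.51 and -1.07. Irf1 remained above the vehicle level, with a log2 change of 0.68 (SE 0.0654, adjusted p = 1.43e-05) in WT and 0.67 (SE 0.0652, adjusted p = 1.63e-05) in Acod1-/- cells. The other higher gene in WT was Irf8, with 0.16 (adjusted p = 0.0374). Its call was lost without vehicle replicate 1 (0.16) or 2 (0.0996) or OI+PM replicate 2 (0.118) of WT and under 4 other settings (adjusted p from 0.0672 to 0.301), and with total count scaling the value turned to -0.067. The length correction took it to 0.32, still called (adjusted p = 0.000861 with the replicate block added). Irf8 was not called in Acod1-/- cells (0.12, adjusted p = 0.108), except with the length correction (0.23, adjusted p = 0.0199; 0.00853 with the replicate block added) and with the compared groups alone (0.14, adjusted p = 0.00183).

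To determine whether the genotype mattered for these genes, Acod1-/- cells were compared with WT cells within each treatment. With vehicle, 0 of the 8 genes were called, where 0.891% of all genes were higher and 0.935% lower in Acod1-/- cells. At an unadjusted p below 0.05 there were 6 of 8, DESeq2 called 1 (Irf7), and edgeR on the 4 vehicle-treated libraries alone called 7. Over all 11228 genes, 1141 had an unadjusted p below 0.05, and the fit on these 4 libraries called 2316 genes against 205. The libraries of the 2 genotypes did not overlap for any of the 8 genes, with 7 higher and 1 (Irf8) lower in Acod1-/- cells. The share of all genes without overlap was not counted, so no difference between genotypes is read from this. The log2 difference ranged from -0.07 for Irf8 to 0.43 for Irf7 (SE 0.11, adjusted p = 0.105), and Ifnar1 and Ifnar2 differed by 0.23 and 0.24. The median over the 8 genes was 0.21, beside 0.0091 for all genes.

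After PM, 2 of the 8 genes were higher in Acod1-/- cells and 0 lower, where 1.1% of all genes were higher and 1.3% lower. Irf1 differed by a log2 of 0.43 (SE 0.0645, adjusted p = 0.00738) and Ifnar1 by 0.36 (SE 0.0696, adjusted p = 0.0272). Without any 1 of the 4 libraries the differences stayed of similar size, from 0.39 to 0.48 for Irf1 and from 0.29 to 0.43 for Ifnar1, while the adjusted p passed the threshold in some of these fits. The call on Irf1 was lost without WT PM replicate 2 (adjusted p = 0.0518) or Acod1-/- PM replicate 1 (0.0837), and that on Ifnar1 without WT PM replicate 2 (0.182) or Acod1-/- PM replicate 1 (0.113) or 2 (0.22). With the compared groups alone neither was called (0.0588 for Irf1 and 0.129 for Ifnar1), nor was Ifnar1 with total count scaling (0.0602). Ifnar2 was also called higher with the length correction (0.26, edgeR adjusted p = 0.0183, and 0.0241 with the replicate block added). Usp18, at 25.0 and 24.2 CPM in WT and 24.0 and 20.6 CPM in Acod1-/- cells, differed by -0.14 (95% interval -0.42 to 0.13). After OI+PM, 1 gene was higher and 0 lower, against 2.51% and 4.45% of all genes, a split that total count scaling moved from 36.1% to 53.4% higher among called genes. The gene was again Ifnar1, with 0.35 (SE 0.07, edgeR adjusted p = 0.0202). Its call was lost without WT OI+PM replicate 2 or Acod1-/- OI+PM replicate 1 or 2, with differences from 0.29 to 0.41 over the left-out libraries. With the compared groups alone Ifnar1 was not called either (0.37, edgeR adjusted p = 0.357), in a fit that called 2 of all 11228 genes. Without WT OI+PM replicate 1, Stat2 was called higher (0.39, adjusted p = 0.0123) and Irf7 lower (-0.32, adjusted p = 0.0254) in Acod1-/- cells, in a fit that called 5452 of 11228 genes (2278 higher and 3174 lower) against 782 with all libraries.

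**Figure D3:**
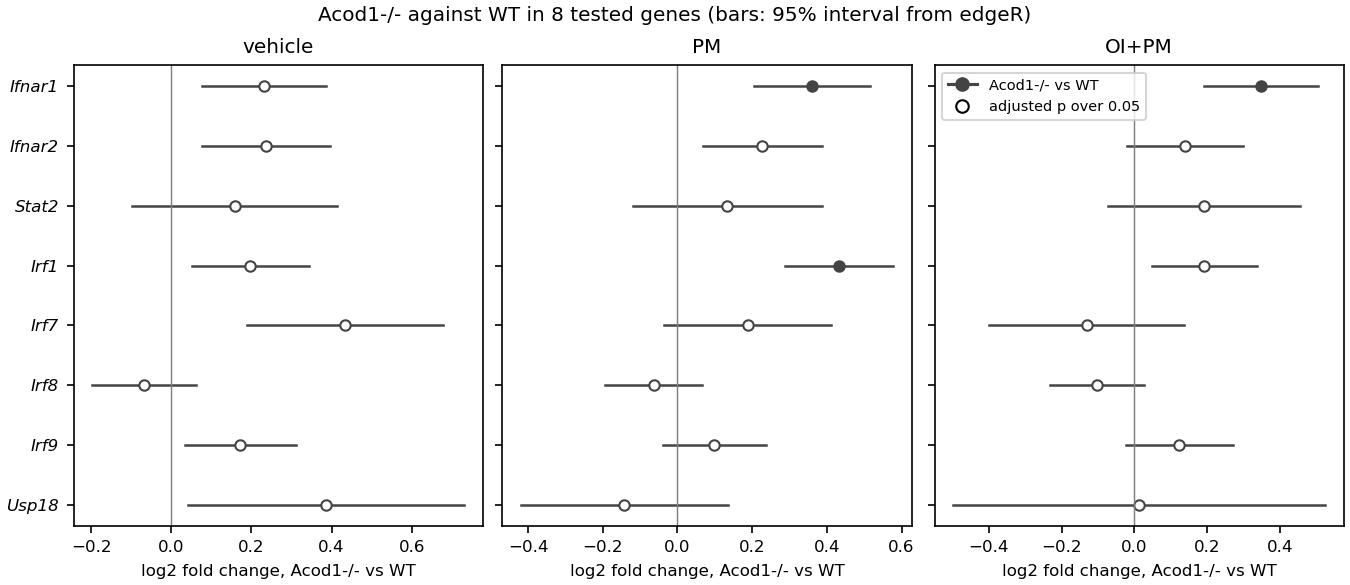
Log2 difference between Acod1-/- and WT cells (horizontal axis) of the 8 tested genes with vehicle, PM and OI+PM. Points are edgeR estimates, open where the adjusted p is over 0.05, bars are 95% confidence intervals, and each panel has its own scale. Ifnar1 lies above 0 in every treatment, at 0.23, 0.36 and 0.35, while the intervals of Irf8 include 0 in every treatment.

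Whether the size of a response differed between genotypes was tested by the interaction term. For the response to PM, 0 of the 8 genes were called, where 0% of all genes were. Of all 11228 genes, 273 had an unadjusted p below 0.05 in edgeR, among them 2 of the 8. The 2 members were Irf1, with a larger estimated rise in Acod1-/- cells by a log2 of 0.24 (SE 0.0918, unadjusted p = 0.0282), and Usp18, with a smaller one (log2 difference -0.53, SE 0.198, unadjusted p = 0.0238). For the response to OI, 0 of 8 were called, where again 0% of all genes were. An unadjusted p below 0.05 was found for 717 of all 11228 genes and for 1 of the 8. This member was Irf1, with a log2 difference of -0.24 (SE 0.0914, edgeR unadjusted p = 0.0256). Irf7 differed by -0.32 (95% interval -0.67 to 0.03), and it was called without WT OI+PM replicate 1 (-0.51, adjusted p = 0.0457), where 525 of all 11228 genes were called. DESeq2 called 3 genes of all tested for the PM interaction and 34 for the OI interaction, and 0 of the members.

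The rest of the pathway was followed through 9 lists of genes. Of 21 interferon genes, 17 had 0 counts in all 12 libraries, and the other 4 (Ifna2, Ifnab, Ifnb1 and Ifnk) had at most 2 counts in any library. For the 17 genes at 0, a count of 0 in a library allows up to 3 counts, or between 0.0815 and 0.0892 CPM. The limit covers counting error only.

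ISGF3 target genes encode antiviral proteins, among them the RNA-binding IFIT proteins. All 22 tested were higher after PM in WT and in Acod1-/- cells, with a median log2 fold change of 2.08 and 1.59. Among them 20 and 19 were DEGs. Of all genes, 12.6% and 12% were higher, and 3.02% and 3.19% were DEGs in this direction. All 22 were lower with OI+PM than with PM in both genotypes, 21 as DEGs in each, with a median of -3.38 and -3.27. Of all genes, 22.6% and 20.6% were lower, and 8.49% and 7.98% were DEGs in this direction. Ifit1 went from 4.06 CPM (SD 0.192, n = 2) with vehicle to 39.9 (SD 4.9) after PM and 1.02 (SD 0.133) after OI+PM in WT cells. Its values in Acod1-/- cells were 6.29 (SD 1.2), 51.0 (SD 2.67) and 1.69 (SD 0.223). The transmembrane protein gene Rtp4 had the largest fall, by a log2 of 6.59 in WT and 5.85 in Acod1-/- cells, and Cxcl10, a chemokine that draws T cells, the largest rise, by 3.66 and 3.92. Cxcl10 was above 1.5 CPM only in the PM-treated libraries, so it passed the filter through the group where it is high. Its rise after PM and its fall with OI are therefore given as a description. The counts and medians of the 22 genes include Cxcl10 and are a description to that extent. Below the vehicle level with OI+PM were 17 genes in WT and 19 in Acod1-/- cells, with a median of -1.40 and -1.39, where 31.9% and 26.7% of all genes were lower, and 1 gene was higher in WT, the exonuclease gene Isg20 (1.05, named after its value was seen). The counts of 22 after PM were unchanged without any 1 library, those with OI were 21 in WT and 22 in Acod1-/- cells, and those against vehicle stayed at 17 in WT and were 16 or 17 in Acod1-/- cells. With CPM above 1.5 required in all libraries, 14 of the 22 genes could be tested, and all 14 were higher after PM and lower with OI in both genotypes.

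Of 13 tested target genes of interferon-γ and IRF1, which include the guanylate-binding proteins, 12 were higher after PM in WT and 13 in Acod1-/- cells, 7 of them as DEGs in each, with medians of 1.08 and 1.02, where 12.6% and 12% of all genes were higher and 3.02% and 3.19% were DEGs. Without 1 library these counts were 10 to 12 in WT and 12 in Acod1-/- cells. With OI+PM, 12 were lower than with PM in WT and 13 in Acod1-/- cells, 9 and 12 as DEGs, with medians of -1.50 and -1.54, where 22.6% and 20.6% of all genes were lower and 8.49% and 7.98% were DEGs. With CPM above 1.5 required in all libraries 8 of the 13 could be tested, of which 7 in WT and 8 in Acod1-/- cells were called after PM and with OI. Gbp2 went from 14.8 CPM (SD 0.214) to 65.8 (SD 5.79) after PM and 8.14 (SD 0.454) after OI+PM in WT cells, and from 13.8 (SD 0.199) to 105 (SD 9.21) and 12.7 (SD 0.713) in Acod1-/- cells. Against vehicle, 8 were lower and 2 higher in WT, beside 31.9% and 33.6% of all genes, and 9 were lower and 1 higher in Acod1-/- cells, beside 26.7% and 22.7%. The lower counts were 7 or 8 without 1 library. The higher genes in WT were Psmb8, an immunoproteasome subunit gene (0.45, adjusted p = 0.0208), and Socs3, named after its value was seen, from 0.246 to 1.38 CPM, and their count was 1 without vehicle replicate 1 or 2 or OI+PM replicate 2. The higher gene in Acod1-/- cells was again Socs3 (0.86, adjusted p = 0.0447), and no gene was called higher without vehicle replicate 1 or OI+PM replicate 1 or 2 or under 8 of the 11 other settings, DESeq2 among them. Socs3 was above 1.5 CPM only in the PM-treated libraries, which are in neither group of this comparison. The counts and medians of the 13 genes after PM and with OI include Socs3 and are a description to that extent. The next list held 5 genes, for ISG15 and for its attachment to proteins, the reaction that USP18 reverses. Of these, 4 were higher after PM and 4 lower with OI in both genotypes, beside the same shares of all genes. The medians were 0.51 and 0.55 after PM and -1.09 and -1.22 with OI. Isg15 itself rose by a log2 of 2.56 (SE 0.158, adjusted p = 3e-06) in WT and 2.48 (SE 0.156, adjusted p = 2.9e-06) in Acod1-/- cells, and fell with OI by 2.16 and 2.79.

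**Figure D4:**
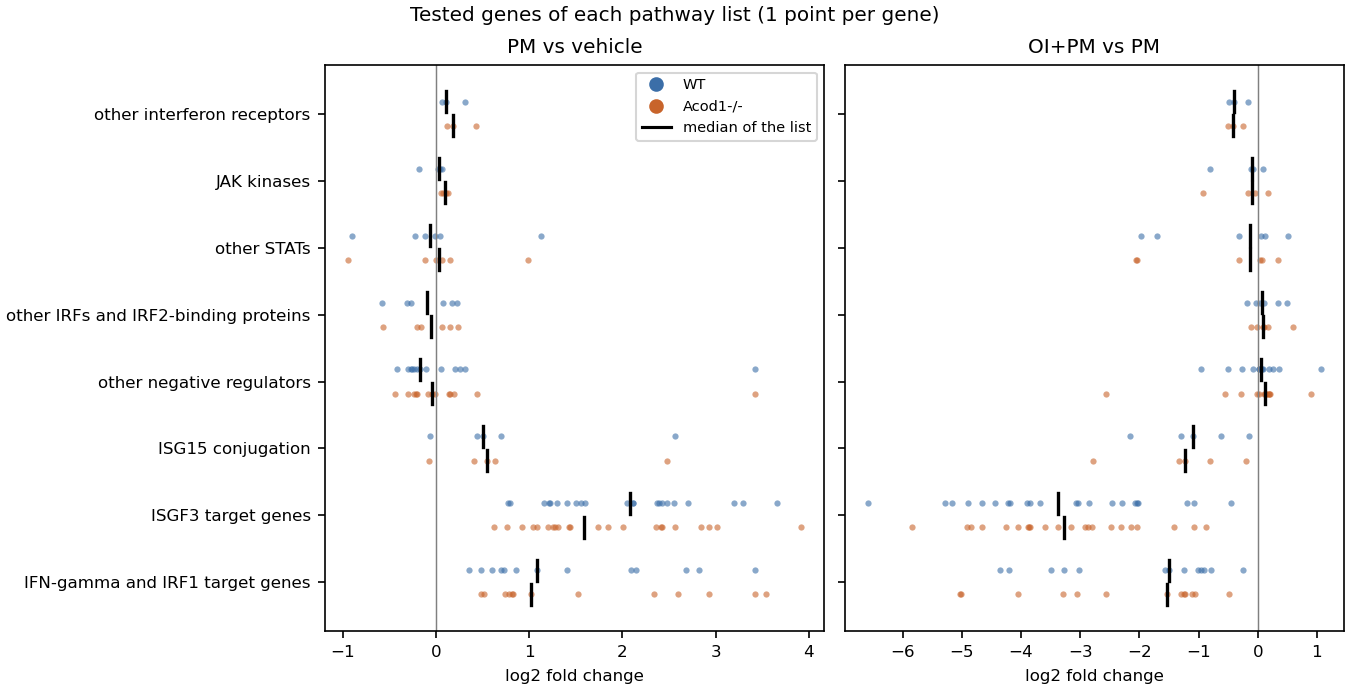
Log2 fold change (horizontal axis) of the tested genes of 8 pathway lists for PM against vehicle and for OI+PM against PM, with 1 point per gene, in WT and in Acod1-/- cells. Black bars mark the median of each list, which is 2.08 and 1.59 for ISGF3 target genes after PM and -3.38 and -3.27 with OI, while the kinase and STAT medians lie near 0.

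Genes upstream of these targets moved less. Of the other interferon receptor genes, 3 were tested. Ifngr2 was higher after PM in WT, and Ifngr2 and Ifngr1 in Acod1-/- cells, and all 3 were lower with OI+PM than with PM in both genotypes, with a median of -0.40 and -0.41, where 12.6% and 12% of all genes were higher after PM and 22.6% and 20.6% lower with OI. Ifngr1, the ligand-binding chain of the interferon-γ receptor, fell by a log2 of 0.48 in WT and 0.51 in Acod1-/- cells. Without 1 library the count of 3 was 2 or 3. The rise of Ifngr2 in WT lost its call without vehicle replicate 2, and in Acod1-/- cells 1 gene was called without any 1 of the 4 libraries compared. Of the 4 JAK kinase genes, 0 were called after PM and 1 was lower with OI, Jak3 (log2 -0.81 and -0.92), which is not one of the kinases bound to IFNAR. A count of 1 in 4 is near the 22.6% and 20.6% of all genes that were lower. Without WT OI+PM replicate 1, 3 JAK genes were lower in WT, as were 3232 of all 11228 genes. Among other STAT genes, Stat3 was higher with OI in both genotypes (0.51 and 0.34), a call lost in Acod1-/- cells without PM replicate 1 or OI+PM replicate 1 or 2, and Stat4, at low counts, was lower with PM and with OI. Exons of Stat4 overlap those of another gene on the same strand.

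Of 6 tested genes for other IRFs and IRF2-binding proteins, 3 were lower after PM in WT (Irf2bpl, Irf2 and Irf5), and 2 lower (Irf2bpl and Irf5) and 1 higher (Irf2bp2) in Acod1-/- cells. With OI, 2 were higher in WT (Irf2bpl and Irf3) and 1 in Acod1-/- cells (Irf2bpl), none of which was a DEG. All genes were lower after PM in 12.2% and 11.9% and higher with OI in 21.3% and 13.9%. Whether counts of 1 to 3 in a list of 6 genes differ from these shares was not tested. The lower count after PM was 0 without WT vehicle replicate 1 or 2 and 1 without WT PM replicate 2, and in Acod1-/- cells it was 0 or 1 without any 1 of the 4 libraries, where the higher count was 0. The higher counts with OI went to 1 in WT without PM replicate 1 or 2 or OI+PM replicate 2, and to 0 in Acod1-/- cells without PM replicate 1 or OI+PM replicate 1 or 2. Of 13 other negative regulators, 2 were higher and 3 lower after PM in WT, and 2 higher and 1 lower in Acod1-/- cells, where 12.6% and 12% of all genes were higher and 12.2% and 11.9% lower, so these counts are near those of all genes. The 3 lower in WT went to 0 without vehicle replicate 1 or PM replicate 2 and to 1 without vehicle replicate 2. With OI, 2 of the 13 were higher and 2 lower in WT, and 1 was higher and 2 lower in Acod1-/- cells. Of all genes, 21.3% and 13.9% were higher with OI and 22.6% and 20.6% lower. Ptpn6, a phosphatase that restrains receptor signalling, rose with PM by 0.31 and 0.45 and fell with OI by 0.51 and 0.55. Ptpn1, which acts on JAK kinases, rose with OI by 1.07 in WT (SE 0.0588, adjusted p = 3.1e-07) and 0.90 in Acod1-/- cells (SE 0.0587, adjusted p = 1.1e-06). The only DEG among these regulators after PM was Socs3, named after its value was seen, from 0.246 to 2.68 CPM in WT and from 0.400 to 4.32 CPM in Acod1-/- cells. With OI+PM it was at 1.38 CPM in WT and 0.730 CPM in Acod1-/- cells. Only the PM-treated libraries had Socs3 above 1.5 CPM, so it passed the filter through the group where it is high. Its rise is therefore given as a description.

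Between genotypes, genes of the lists were called in both directions. Stat4 was lower in Acod1-/- cells in each treatment, at 1.71 against 3.81 CPM with vehicle (log2 -1.15, adjusted p = 0.00282), 0.886 against 2.04 CPM after PM (-1.20, adjusted p = 0.00724) and 0.213 against 0.625 CPM with OI+PM (-1.53, adjusted p = 0.0203), all at low counts and under the average set for naming. The count of lower genes in its list was 0 without Acod1-/- vehicle replicate 2, without any 1 of the PM-treated libraries other than WT replicate 1, and without any 1 of the OI+PM libraries other than WT replicate 1. After PM, 5 of 13 interferon-γ and IRF1 target genes were higher in Acod1-/- cells, led by Gbp2 (0.67, SE 0.0861, adjusted p = 0.0033), Gbp7 (0.62) and Gbp3 (0.56), and 0 of 22 ISGF3 target genes were, beside 1.1% of all genes. Under the settings other than a left-out library, the count of 5 ran from 1 to 7. The count of 5 was 3 without WT PM replicate 1 and 2 without any 1 of the other 3 PM-treated libraries. With vehicle 1 interferon-γ and IRF1 target gene was higher, Iigp1, named after its value was seen, at 0.0776 CPM in WT and 0.510 CPM in Acod1-/- cells, a call lost without any 1 vehicle-treated library, and with OI+PM 1 was higher, Gbp2, where the count was 0 without Acod1-/- OI+PM replicate 2 and 5 without WT OI+PM replicate 1. Of all genes, 0.891% were higher in Acod1-/- cells with vehicle and 2.51% with OI+PM. With vehicle and with OI+PM, 2 of 22 ISGF3 target genes, Rtp4 and Oasl2, were higher in Acod1-/- cells, by 0.92 and 0.44 and by 1.04 and 0.46. Without any 1 vehicle-treated library 1 was called, and with OI+PM 6 were called without WT OI+PM replicate 1, the fit with 2278 of all genes higher, and 0 without any 1 of the other 3 libraries. Ifngr1 was higher in each treatment (0.25, 0.37 and 0.34), a call lost without any 1 vehicle-treated library, without Acod1-/- PM replicate 1, and without Acod1-/- OI+PM replicate 1 or 2.

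Finally, the genes whose pattern over the 12 libraries was most like that of each member were found by Pearson's r of log2 CPM among 9557 other genes with an average of at least 5 CPM. The libraries fall into 6 groups and share treatments, so r is given as a description. Usp18 was closest to Oas1a (r = 0.992), Irf7 to Zbp1 (0.993) and Slfn2 (0.993), Stat2 to Oas3 (0.997) and H2-T24 (0.995), and Irf9 to Fcgr1 (0.997) and Rasgef1b (0.995). Irf1 was closest to Slamf8 (0.986) and Ctsk (0.978), Ifnar1 to Ptafr (0.986) and Xdh (0.986), Irf8 to Plk3 (0.959) and Btbd19 (0.955), and Ifnar2 to Crlf2 (0.929) and Capza2 (0.927). Among the members, the pairs most alike were Irf7 and Usp18 (0.982), Stat2 and Usp18 (0.963), and Stat2 and Irf9 (0.938). Irf1 and Irf9, which PM raised and OI lowered to different degrees, had an r of 0.014, and Ifnar1 and Irf8 ran opposite (-0.950). Irf8 spanned only 1.23-fold over the 12 libraries. With total count scaling its log2 change with OI in WT went from 0.17 to 0.042. Whether this r depends on the scaling was not tested.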

How the data were processed

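RNA from 12 BMDM libraries was sequenced by the authors, who per the methods and the submitters' processing notes aligned reads to GRCm38 with STAR 2.5.3a and assigned them to genes with featureCounts. What the authors deposited is the count of each gene in each library, not normalized, and a library's group came from its label. Which annotation release was used, and whether strand or reads with several alignments were considered, are not given in the sources used here. Identifiers were matched to symbols for 48349 of 48795 genes, and positions and exonic lengths came from GENCODE M21 for GRCm38.

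Genes with CPM above 1.5 in at least 2 libraries were tested, 11228 in all. Counts were fitted in edgeR 4.0.16 (R 4.3.3) by its quasi-likelihood method with TMM scaling, 1 mean per group (6 in all), no replicate block, and p-values were adjusted by Benjamini-Hochberg over all genes tested. Each comparison was a contrast of group means, and interactions compared the PM or OI response between genotypes. A gene was called at an adjusted p of 0.05 or less, and was a DEG when it also changed at least 2-fold. SEs are those implied by the test, and 95% intervals use the fit's degrees of freedom. Normalized CPM are TMM-scaled, with SDs over 2 libraries. The script was tested on simulated data with 200 changed genes. Libraries held 33616577 to 36817898 counts (median 34480636), so that precision was limited by the 2 libraries per group, and for Socs1 by its counts.

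The members, and the lists of pathway and marker genes, were chosen with earlier results of these data known. The genes named are the members, Acod1, Nnt and Wdfy1, up to 3 called genes per list, comparison and direction with the largest change among those averaging 5 CPM or more, and the 2 genes most like each member. Other genes are said to be named after their values were seen, and 1 gene that this rule would name is not reported here. Alternatives were DESeq2 1.42.0, RLE or total count scaling, testing genes with 10 or more counts over all libraries, no filter, CPM above 1.5 in all libraries, the compared groups alone, a replicate block, a correction for gene length with and without that block, and leaving out each library. The replicate block with the numbers of 2 libraries exchanged, and all alternatives for the pathway lists, were added after seeing the data. RefSeq promoter windows were searched on both strands by a script.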

Additional observations from a re-analysis of the deposited data

How the results depend on the processing

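Under the settings other than a left-out library, counts of called members stayed within 1.5 times of the main count in 112 cases and moved further in 20, and member values kept direction and call in 871 cases, gained a call in 35, lost it in 20 and changed sign in 31. The falls of Ifnar1, Stat2, Irf7, Irf9 and Usp18 with OI, and the rises of Stat2, Irf1, Irf7 and Usp18 with PM, held in both genotypes under every alternative run, which for Usp18 leaves out CPM above 1.5 in all libraries, where it could not be tested. Requiring a 2-fold change left 2 members in WT and 3 in Acod1-/- cells after PM, 4 in WT with OI, 2 in WT and 3 in Acod1-/- cells for OI+PM against vehicle, and 0 between genotypes with PM and with OI+PM. The causes of the other changes were not tested. Total count scaling moved the median log2 fold change of all genes from 0.02 to -0.11 for OI in WT, and for OI+PM against vehicle from 0.02 to -0.20 in WT and from -0.0056 to -0.15 in Acod1-/- cells. With that scaling Ifnar2 (-0.12 in WT, -0.14 in Acod1-/-) and Irf8 (-0.067 and -0.027) for OI+PM against vehicle turned below 0, as did Ifnar1 after PM in WT (-0.079; DESeq2 and RLE scaling -0.0021). The length correction turned Irf8 after PM to 0.10 in WT and 0.091 in Acod1-/- cells, and Ifnar2 for OI+PM against vehicle to -0.040 and -0.066, and CPM above 1.5 in all libraries turned the latter to -0.015 in Acod1-/- cells. None of these values was called either way, apart from Irf8 in WT for OI+PM against vehicle.

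Between genotypes with vehicle, where 0 members were called, DESeq2 and no filter each called 1 (Irf7), the compared groups alone 7, and the length correction 3 (Ifnar1, Ifnar2 and Irf7). With PM, where 2 were called, total count scaling called 1 and the compared groups alone 0. With OI+PM, where 1 was called, DESeq2 and total count scaling called 2, the compared groups alone 0, and the length correction 3. The number of all genes called moved too. With vehicle it was 205 in the main fit, 307 with DESeq2, 429 without a filter, 2316 with the compared groups alone and 373 with the length correction. With PM it was 269, 269 with total count scaling and 174 with the compared groups alone. With OI+PM it was 782, 1321 with DESeq2, 771 with total count scaling, 2 with the compared groups alone and 1724 with the length correction. Interactions near 0 changed sign. For the PM response, Ifnar2 went from -0.01 to 0.0035 with DESeq2 and with RLE scaling, 0.0045 with total count scaling, 0.00052 with at least 10 counts, 0.0013 with the compared groups alone and 0.014 with the length correction, which took Irf8 to -0.011. For the OI response, Ifnar1 went from -0.01 to 0.048 with total count scaling, 0.0016 with at least 10 counts, 0.0097 without a filter, 0.0063 with CPM above 1.5 in all libraries and 0.010 with the compared groups alone, and Irf8 went to 0.022 with total count scaling.

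The replicate numbers pair no samples by label, and the deviations of same-numbered libraries correlated between -0.412 and 0.733 over the 9 comparisons of 2 groups. A replicate block alone changed no call of a member. With the replicate block and the length correction, the values were close to those of the length correction, with Irf8 at 0.10 and 0.090 after PM, Ifnar2 at -0.040 and -0.066 for OI+PM against vehicle, 0.013 and -0.011 for the interactions of Ifnar2 and Irf8, and 3 members called between genotypes with vehicle and 3 with OI+PM. Of all genes, that fit called 372 between genotypes with vehicle and 1897 with OI+PM. With the numbers of the Acod1-/- PM libraries exchanged, the replicate block called 1 member between genotypes with vehicle, and 246 of all genes.

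Leaving out a library leaves a group with 1, which is assumed to vary like the other groups. Counts of called members then ranged from 0 to 2 between genotypes with PM, from 0 to 3 with OI+PM and from 0 to 1 for the OI interaction. Values that crossed 0 were Ifnar1 after PM in WT (-0.060 to 0.079), Irf8 after PM in Acod1-/- cells (-0.051 to 0.025), Ifnar2 with OI in WT (-0.14 to 0.035) and for OI+PM against vehicle in Acod1-/- cells (-0.017 to 0.036), and, between genotypes with OI+PM, Irf7 (-0.32 to 0.074) and Usp18 (-0.27 to 0.34). Interactions that crossed 0 were, for PM, Ifnar2 (-0.063 to 0.044), Stat2 (-0.16 to 0.12) and Irf8 (-0.034 to 0.042) and, for OI, Ifnar1 (-0.073 to 0.056), Ifnar2 (-0.17 to 0.0018), Stat2 (-0.11 to 0.25), Irf9 (-0.029 to 0.077) and Usp18 (-0.13 to 0.48).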
